A study of Mus musculus with 4 samples.

Results

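The mature miRNAs of the clustered genes Mir143 and Mir145a were followed in small RNA from exosomes of 2 mouse colon carcinoma lines. The members were taken by name, mmu-miR-143-3p, mmu-miR-145a-5p and mmu-miR-145a-3p (below without the species prefix). They are 3 of the 795 mature miRNAs listed, and all 3 passed the filter on low values. Exosomes are small vesicles that cells shed into their medium, here exosome-free medium conditioned by C26 or MC38 cells. C26 tumours are widely used to induce wasting in mice, and MC38 is a line often grafted into C57BL/6 mice. The labels give 2 ways of isolation for both lines, a Wako exosome capture ELISA kit, in which vesicles bind to a coated surface, and ExoQuick-TC, which precipitates them. The 4 groups were thus C26 Wako, MC38 Wako, C26 ExoQuick and MC38 ExoQuick, with 1 library each, and no untreated or other control was among them. Separate cultures are not stated in the labels. With 1 library a group, the p-values rest on how far the libraries depart from additive effects of line and kit. That departure measures no spread between replicates, and it may be technical.

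miR-143 and miR-145 are cut from 1 primary transcript and are known as a pair that is abundant in smooth muscle and fibroblasts and scarce in epithelium. Serum response factor and myocardin drive the transcript in smooth muscle, where both miRNAs help to keep cells in the contractile state. miR-145 represses Klf4, a transcription factor that opposes that state, and miR-143 represses Elk1, a cofactor that competes with myocardin. Both miRNAs are often reduced in colon tumours, whose epithelial cells hold little of them. In the GENCODE M21 annotation of GRCm38, Mir145a lies on chromosome 18 (61647825 to 61647894, minus strand) and Mir143 at 61649196 to 61649258 on the same strand, with 1301 bases between the hairpins. The noncoding gene Carmn, on the same strand, ends 366 bases before Mir143 in that annotation, which places neither hairpin in an exon or intron of it. RefSeq's Carmn on GRCm38.p6 spans both hairpins.

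Values are RPM, reads per 1000000 of the library total. The totals were 33692 reads for C26 Wako, 3867 for MC38 Wako, 1356801 for C26 ExoQuick and 340643 for MC38 ExoQuick, so that 1 read was worth between 0.737 and 259 RPM. Intervals are exact 95% intervals (Clopper-Pearson for levels and shares). They describe counting error alone, as no molecular identifiers show which reads are copies of 1 molecule. In RNA pooled from many vesicles, fewer vesicles with a miRNA and less of it per vesicle cannot be told apart. Of 11 fixed epithelial miRNAs the table lists 3 (miR-192-5p, miR-194-5p and miR-203-3p), whose summed level was 148 RPM in C26 Wako, 1034 in MC38 Wako (4 reads), 84.8 in C26 ExoQuick and 70.5 in MC38 ExoQuick.

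miR-143-3p was the most abundant member in every library, and more abundant in C26 than in MC38 exosomes under each kit. It stood at 5877 RPM in C26 Wako (198 reads, interval 5089 to 6752) and 3103 RPM in MC38 Wako (12 reads, 1604 to 5414). In the other pair of libraries it stood at 9542 RPM in C26 ExoQuick (12947 reads, 9379 to 9707) and 919 RPM in MC38 ExoQuick (313 reads, 820 to 1026). In RPM, C26 ExoQuick was thus the highest and MC38 ExoQuick the lowest of the 4, and the intervals of C26 Wako and MC38 Wako overlapped. With median-ratio scaling miR-143-3p was lower in MC38 Wako, at 0.870 of MC38 ExoQuick. By level it ranked 35 of 407 miRNAs with reads in C26 Wako, 43 of 188 in MC38 Wako, 21 of 687 in C26 ExoQuick and 46 of 475 in MC38 ExoQuick.

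miR-145a-5p, the main product of the other hairpin, stood lower than miR-143-3p in each library and was also higher in C26 under each kit. It reached 2434 RPM in C26 Wako (82 reads, 1936 to 3020) and 1293 RPM in MC38 Wako (5 reads, 420.0 to 3015). With ExoQuick it reached 1277 RPM in C26 (1732 reads, 1217 to 1338) and 205 RPM in MC38 (70 reads, 160.2 to 260). MC38 ExoQuick again stood below the rest, and the interval of MC38 Wako overlapped those of both C26 libraries.

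miR-145a-3p, the opposite arm of the miR-145a hairpin, was the least abundant member in every library. It stood at 208 RPM in C26 Wako (7 reads, 83.5 to 428), 259 RPM in MC38 Wako (1 read, 6.55 to 1440), 114 RPM in C26 ExoQuick (155 reads, 97.0 to 134) and 17.6 RPM in MC38 ExoQuick (6 reads, 6.46 to 38.3). The single read of MC38 Wako gives an interval that holds the levels of the other 3 libraries. Together the 3 members made up 0.852% of C26 Wako, 0.465% of MC38 Wako, 1.09% of C26 ExoQuick and 0.114% of MC38 ExoQuick.

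**Figure D1:**
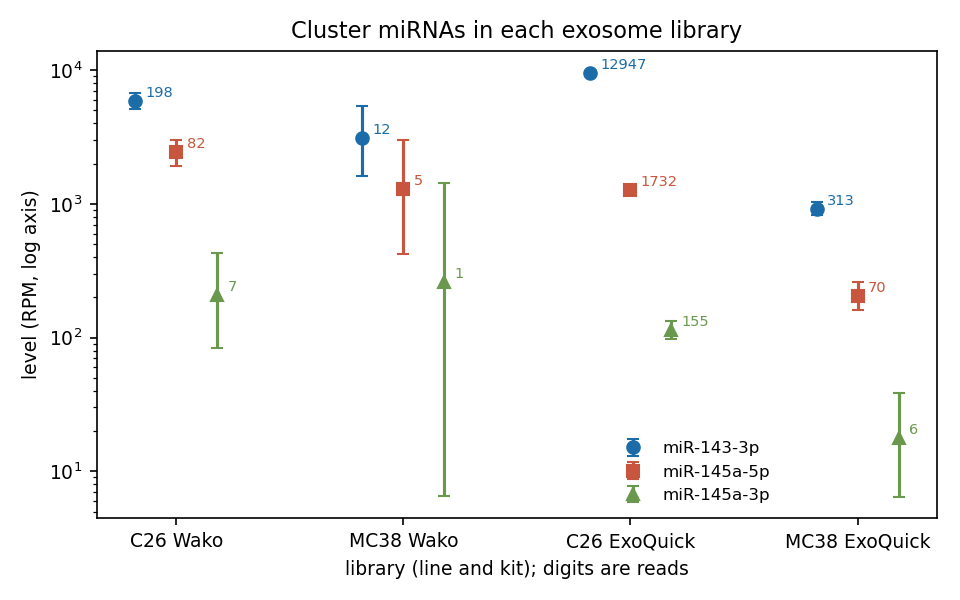
Level of miR-143-3p, miR-145a-5p and miR-145a-3p in RPM (log axis) in each of the 4 libraries, with exact 95% intervals of the counts as bars and the number of reads beside each point. Every member is lowest in MC38 ExoQuick, and the points of MC38 Wako rest on 12, 5 and 1 reads.

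The opposite arm of miR-143 and a paralog of miR-145a were scarce. miR-143-5p had 65 reads in C26 ExoQuick (47.9 RPM), 5 in MC38 ExoQuick (14.7 RPM) and 0 in C26 Wako and MC38 Wako, where 3 counts, the limit set for an undetected miRNA, equal 89.0 RPM in C26 Wako and 776 RPM in MC38 Wako. miR-145b, which GENCODE M21 places elsewhere on chromosome 18 (69022199 to 69022273, minus strand), had 2 reads in C26 ExoQuick and 0 in the other 3 libraries.

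The comparison in the title of the series is that of C26 with MC38. With ExoQuick all 3 members stood several-fold higher in C26, and with Wako the ratios were smaller or below 1. For miR-143-3p the ratio of C26 to MC38 was 1.89 with Wako (exact 95% interval 1.06 to 3.73) and 10.4 with ExoQuick (9.28 to 11.7). For miR-145a-5p it was 1.88 with Wako (0.775 to 5.95) and 6.21 with ExoQuick (4.89 to 8.01). For miR-145a-3p it was 0.803 with Wako (0.103 to 36.2), on 7 and 1 reads, and 6.49 with ExoQuick (2.91 to 17.9). With median-ratio scaling the ExoQuick ratios were 5.61, 3.36 and 3.50 for miR-143-3p, miR-145a-5p and miR-145a-3p. The ExoQuick intervals of all 3 members as deposited lie above 1, while the Wako interval lies above 1 for miR-143-3p alone. These ratios rest on 1 library a side and have no replicate check.

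The members were set against the miRNAs with at least 3 reads in both libraries of a pair. With Wako 105 miRNAs met this and their median ratio of C26 to MC38 was 0.865, with 17 of them above miR-143-3p and 19 above miR-145a-5p. miR-145a-3p did not meet it. With ExoQuick 299 miRNAs met it and their median ratio was 0.935, with 21 above miR-143-3p, 29 above miR-145a-5p and 27 above miR-145a-3p. With Wako, this minimum of 3 reads leaves out miRNAs that are low in MC38. Among all 390 miRNAs tested, on the log2(RPM + 1) scale, 47.7% had a lower Wako difference than miR-143-3p and 47.2% a lower one than miR-145a-5p. Those 2 values of 0.92 and 0.91 lay below the median of 1.18. That median includes miRNAs with no read in MC38 Wako, where only 188 miRNAs of the table had reads. The 2 backgrounds thus place the members differently with Wako. With ExoQuick, 80.5% to 83.8% of the 390 lay below the members.

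In the fit over both kits, none of the 3 members passed the test for a line difference. The test was limma on log2(RPM + 1) over 390 miRNAs, with line and kit as terms and a Benjamini-Hochberg adjusted p under 0.05 as threshold, and it called 3.33% of the miRNAs tested, 2.82% as higher in C26 and 0.513% as higher in MC38. For miR-143-3p the fitted log2 difference of C26 minus MC38 was 2.15 (SE 0.84, adjusted p = 0.180 in limma). For miR-145a-5p it was 1.77 (SE 0.99, adjusted p = 0.521 in limma) and for miR-145a-3p 1.16 (SE 2.06, adjusted p = 0.812 in limma). The median over the members was 1.77, and that over all 390 miRNAs was 1.85, a value that depends on the filter and pseudocount. Among miRNAs averaging 100 RPM or more it was 0.37, with the members again at 1.77. With a pseudocount of 10 it was 1.08 (members 1.74), with 0.5 it was 2.04 (members 1.77), and in DESeq2 it was −0.21 (members 1.44). Whether the members lay above the median miRNA thus depends on the setting. At unadjusted p under 0.05, 1 member, miR-143-3p, passed in limma, in edgeR and in DESeq2, and both other tools also called 0 of 3 after adjustment. Of all 390 miRNAs, 46 were under that unadjusted threshold in limma, 58 in edgeR and 44 in DESeq2. The difference of miR-145a-3p turned to −0.74 when MC38 ExoQuick was left out, in a fit without the kit term. In such fits without MC38 Wako the differences of the 3 members were 3.03 to 3.09, and without MC38 ExoQuick that of miR-143-3p was 1.27 and that of miR-145a-5p 0.45.

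**Figure D2:**
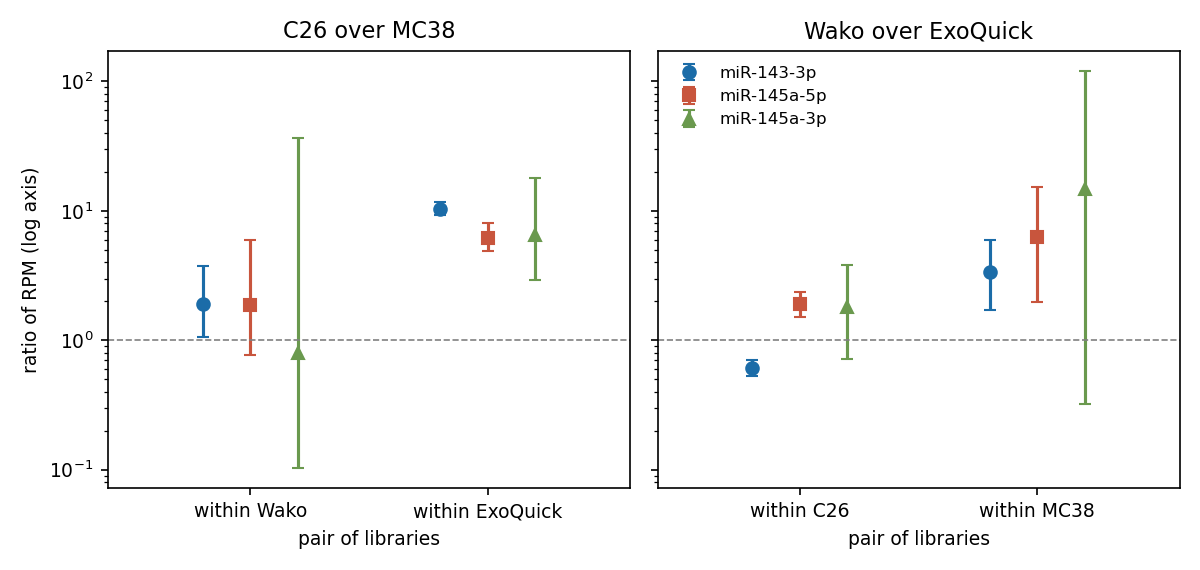
Ratio of RPM between 2 libraries for each member, on a log axis with exact 95% intervals of the counts: C26 over MC38 within each kit on the left, Wako over ExoQuick within each line on the right. The dashed line marks a ratio of 1. With ExoQuick the 3 members lie between 6.21 and 10.4 in C26 over MC38, and with Wako between 0.803 and 1.89.

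The 2 isolation kits imply a second comparison, Wako against ExoQuick, in which miR-143-3p went in opposite directions in the 2 lines. In C26, its level in Wako was 0.616 of that in ExoQuick (exact 95% interval 0.532 to 0.709), and in MC38 it was 3.38-fold higher with Wako (1.73 to 5.98). The ratio in MC38 was 0.870 with median-ratio scaling and 1.26 with TMM scaling, so its direction depends on the scaling. miR-145a-5p was 1.91-fold higher with Wako in C26 (1.51 to 2.38) and 6.29-fold higher in MC38 (1.98 to 15.4), but the C26 ratio was 1.02 with median-ratio scaling and 0.528 with TMM scaling, and the MC38 ratio was 1.62 with median-ratio scaling. miR-145a-3p had ratios of 1.82 in C26 (0.719 to 3.84) and 14.7 in MC38 (0.319 to 121), both with intervals that hold 1. With median-ratio scaling these were 0.970 and 3.78. Over the miRNAs with at least 3 reads in both libraries, the median Wako over ExoQuick ratio was 2.46 in C26 (249 miRNAs) and 3.97 in MC38 (106). miR-145a-5p thus lay below the median in C26, with 141 miRNAs above it, and above it in MC38, with 46 above. miR-143-3p lay below this median in both lines, with 213 and 57 miRNAs above. The minimum of 3 reads leaves out miRNAs that are low in the Wako libraries. Among all 390 miRNAs tested, on the log2(RPM + 1) scale, the median difference was 1.03 in C26 and 0 in MC38. Of these, 21.0% had a lower difference than miR-143-3p in C26 and 71.3% in MC38. Its place in MC38 thus depends on the background.

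No member passed the kit test in limma, which called 5.38% of the 390 miRNAs, all higher with Wako. The fitted log2 difference of Wako minus ExoQuick was 0.53 for miR-143-3p (SE 0.84, adjusted p = 0.881 in limma). It was 1.79 for miR-145a-5p (SE 0.99, adjusted p = 0.436 in limma) and 2.33 for miR-145a-3p (SE 2.06, adjusted p = 0.728 in limma). At unadjusted p under 0.05 the count was 0 of 3 in limma, edgeR and DESeq2, beside 53, 71 and 57 of all 390 in that order. The value for miR-143-3p turned to −0.90 with median-ratio scaling, −1.11 with TMM scaling and −0.64 with quantile normalization, and to −1.16 without MC38 ExoQuick. Without C26 ExoQuick it was 2.22, and it was 0.07 without C26 Wako and 0.99 without MC38 Wako, each without the line term. The Wako libraries had fewer reads than the ExoQuick library of their line, so kit and depth cannot be told apart.

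The balance between members within 1 library does not depend on the scaling, and in C26 miR-145a-5p took a larger share with Wako than with ExoQuick. Of the reads of miR-143-3p and miR-145a-5p together, miR-143-3p made up 70.7% in C26 Wako (280 reads, exact 95% interval 65.0 to 76.0) and 70.6% in MC38 Wako (17 reads, 44.0 to 89.7). It made up 88.2% in C26 ExoQuick (14679 reads, 87.7 to 88.7) and 81.7% in MC38 ExoQuick (383 reads, 77.5 to 85.5). The interval of C26 Wako lies below those of both ExoQuick libraries, and that of MC38 Wako overlaps all 3 others.

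Put as an odds ratio, the reads of miR-143-3p over those of miR-145a-5p were 0.323 as high in C26 Wako as in C26 ExoQuick (exact 95% interval 0.247 to 0.425). In MC38 the same odds ratio of Wako to ExoQuick was 0.538 (0.169 to 2.01), which holds 1. Between the lines, the odds ratio of C26 to MC38 was 1.01 with Wako (0.269 to 3.19) and 1.67 with ExoQuick (1.26 to 2.18). The balance of the 2 hairpins' main products thus differed beyond counting error between the kits in C26 and between the lines with ExoQuick, each time between 2 libraries.

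The balance of the 2 arms of the miR-145a hairpin stayed within counting error in all 4 libraries. miR-145a-5p made up 92.1% of the reads of both arms in C26 Wako (89 reads, interval 84.5 to 96.8), 83.3% in MC38 Wako (6 reads, 35.9 to 99.6), 91.8% in C26 ExoQuick (1887 reads, 90.5 to 93.0) and 92.1% in MC38 ExoQuick (76 reads, 83.6 to 97.0). All 4 intervals overlap. The odds ratio of the arms was 1.05 for Wako over ExoQuick in C26 (exact 95% interval 0.475 to 2.74) and 0.958 for C26 over MC38 with ExoQuick (0.335 to 2.24), intervals that leave room for more than a doubling. For miR-143 the main arm, miR-143-3p, took 99.5% of the reads of both arms in C26 ExoQuick (99.4 to 99.6) and 98.4% in MC38 ExoQuick (96.4 to 99.5).

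**Figure D3:**
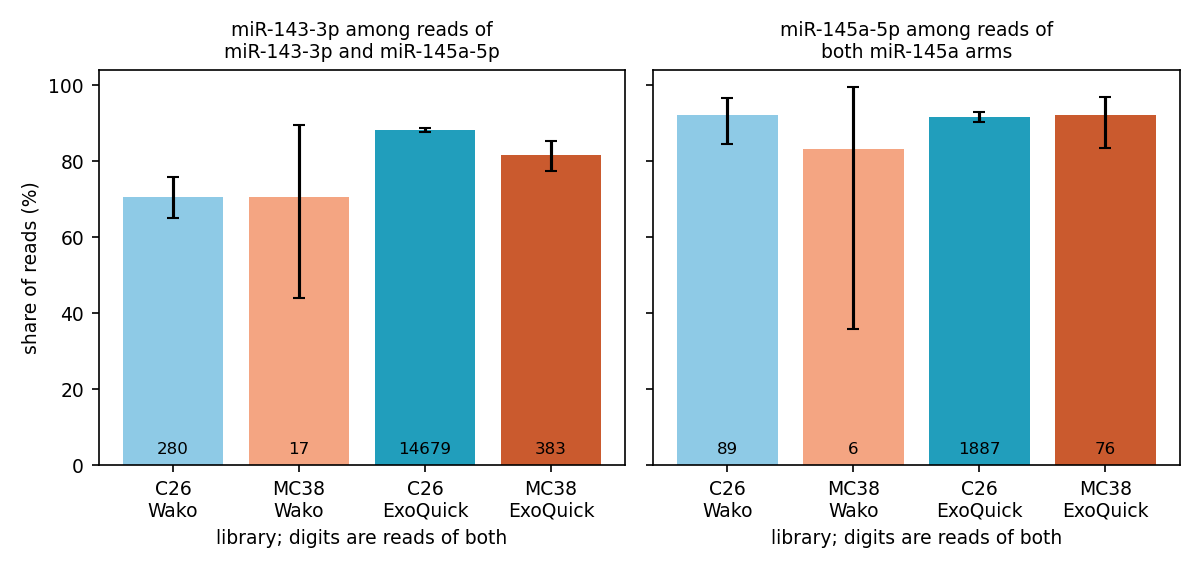
Share of miR-143-3p among the reads of miR-143-3p and miR-145a-5p (left) and of miR-145a-5p among the reads of both miR-145a arms (right), in percent, in each library, with exact 95% intervals and the reads behind each bar. The left share is 70.7% in C26 Wako against 88.2% in C26 ExoQuick, and the right share is 91.8% to 92.1% in the 3 libraries other than MC38 Wako.

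Among other miRNAs typical of mesenchymal cells, miR-199a-3p and miR-214-3p stood above miR-143-3p in all libraries except MC38 ExoQuick, where miR-143-3p at 919 RPM was above both (869 and 443 RPM). The 9 miRNAs of the fibroblast and mesenchymal list summed to 105337 RPM in C26 Wako, 58185 in MC38 Wako, 174589 in C26 ExoQuick and 2959 in MC38 ExoQuick, counting the shared reads of miR-199a-3p and miR-199b-3p under both. All 9 were tested, and 5 of them passed as higher in C26 and 0 as lower in limma, against 2.82% and 0.513% of all 390. Of the 5, miR-199a-3p and miR-199b-3p are the same reads, so that 4 separate profiles passed. This list, like the others here, was chosen with earlier results of these data known. Its counts therefore describe the list and are no independent check. Over the 9, the median log2 difference was 3.44, against 1.85 over all 390, a value that depends on the filter and pseudocount. miR-125b-5p, a relative of lin-4, was among the 5 (log2 3.44, SE 0.87, adjusted p = 0.00523 in limma), and the others were miR-199a-3p, miR-199b-3p, miR-199a-5p and miR-214-3p. With median-ratio scaling or quantile normalization limma called 0 of all 390 miRNAs between the lines, with 26 and 53 at unadjusted p under 0.05 in that order. As for the cluster, the lowest sum was that of MC38 ExoQuick. Between the kits, 2 of the 9, miR-125b-5p and miR-199a-5p, passed as higher with Wako and 0 as lower, against 5.38% and 0% of all 390. miR-152-3p (log2 −5.09, SE 2.21) and miR-100-5p (log2 −3.90, SE 3.39) went the other way without passing, at 8 reads or fewer in the Wako libraries. With ExoQuick miR-152-3p was also higher in MC38 (575 RPM) than in C26 (480 RPM), unlike the cluster. All kit calls were lost with median-ratio scaling, quantile normalization or no trend (45, 95 and 31 at unadjusted p under 0.05 in limma).

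Markers of striated muscle were at or near 0. The table lists 1 of the 7 fixed for it, miR-206-3p, a miRNA of skeletal muscle, with 6 reads in MC38 ExoQuick (17.6 RPM) and 0 in the other 3 libraries. The 2 endothelial miRNAs, miR-126a-3p and miR-126a-5p, summed to 1721 RPM in C26 Wako, 517 in MC38 Wako (2 reads), 138 in C26 ExoQuick and 276 in MC38 ExoQuick, and neither passed either test. With ExoQuick this sum was lower in C26 than in MC38, unlike the levels of the cluster.

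Of 14 other miRNAs that are often reduced in colorectal tumours the table lists 8, and 7 were tested. Between the lines 0 passed as higher in C26 and 1 as lower, where 2.82% and 0.513% of all 390 did so. This was miR-378a-3p, encoded within the metabolic coactivator gene Ppargc1b (log2 −2.94, SE 0.82, adjusted p = 0.0159 in limma). miR-497a-5p, of the miR-15/16 seed family, stood at 3087 RPM in C26 Wako, 2845 in MC38 Wako, 6470 in C26 ExoQuick and 1248 in MC38 ExoQuick, and did not pass (log2 1.25, SE 0.85, adjusted p = 0.711 in limma). The median of the 7 was 1.25, against 1.85 over all 390, a value that depends on the filter and pseudocount. Of 12 miRNAs often raised in such tumours, 9 were tested, and 1 passed as higher in C26, miR-221-3p, and 0 as lower (median 1.66), again beside 2.82% and 0.513% of all 390. Between the kits, 0 of the 7 passed, and 1 of the 9, miR-31-5p, passed as higher with Wako, against 5.38% of all 390.

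The miRNA whose profile over the 4 libraries was most like that of miR-143-3p was miR-21a-5p, itself often raised in colorectal tumours. Likeness was the Euclidean distance between profiles of log2(RPM + 1), each centred on its own mean, over 4 libraries, among 164 other miRNAs that had reads in every library and averaged 100 RPM or more. miR-21a-5p stood at 21756 RPM in C26 Wako, 10344 in MC38 Wako, 32249 in C26 ExoQuick and 2601 in MC38 ExoQuick, at a distance of 0.28. let-7d-3p (0.75), miR-125a-3p (0.77), miR-99b-5p (0.86) and miR-27a-3p (0.92) followed. In MC38 Wako these had 25, 2, 11 and 3 reads in that order, and miR-143-3p had 12, so the distances rest on few reads there. In comparison, miR-145a-5p, of the same transcript and with 5 reads in MC38 Wako, lay at 1.37 from miR-143-3p, with 13 miRNAs nearer. These distances are descriptions with no test, and points of 4 libraries are few.

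The mature sequences of these 5 miRNAs, from RefSeq on GRCm38.p6, are shown to compare the seeds (bases 2 to 8, in capitals) through which they select targets. All 5 seeds differ.
miR-21a-5p: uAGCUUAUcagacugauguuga
let-7d-3p: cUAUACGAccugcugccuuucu
miR-125a-3p: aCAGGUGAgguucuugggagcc
miR-99b-5p: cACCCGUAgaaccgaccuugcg
miR-27a-3p: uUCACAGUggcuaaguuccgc

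**Figure D4:**
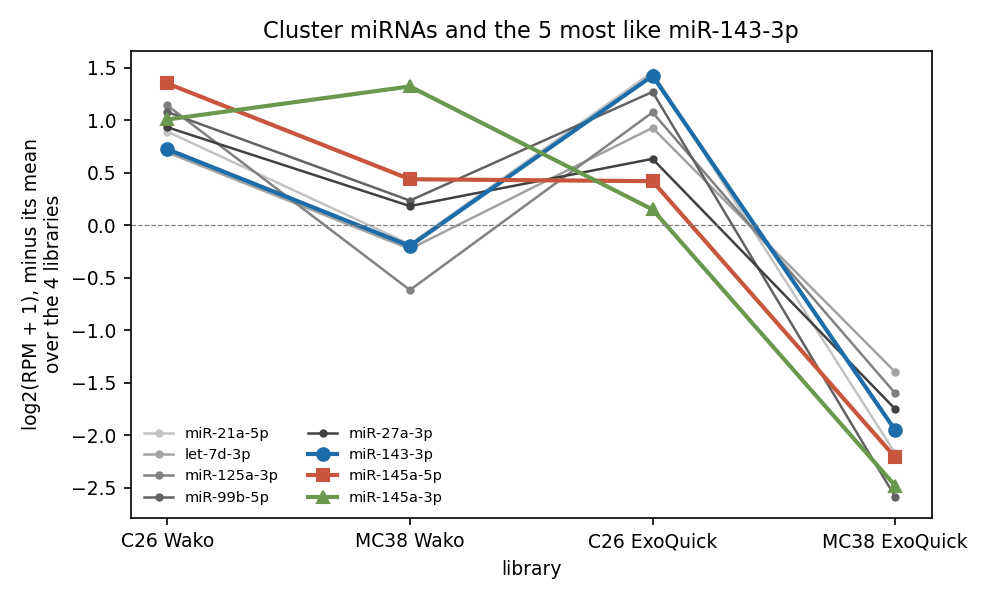
Profiles of the 3 members (coloured) and of the 5 miRNAs most like miR-143-3p (grey) over the 4 libraries, as log2(RPM + 1) minus the mean of each miRNA. On these RPM values all 8 are lowest in MC38 ExoQuick, and miR-143-3p and miR-21a-5p lie at a distance of 0.28. With median-ratio scaling miR-143-3p was lower in MC38 Wako, at 0.870 of MC38 ExoQuick.

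For miR-145a-5p the nearest profiles were those of miR-99b-3p (0.61), the p53-responsive miR-34c-5p (0.61), miR-27a-3p (0.70), miR-1983 (0.87) and the collagen-repressing miR-29a-3p (0.93). miR-27a-3p was thus near both main products of the cluster. In MC38 Wako miR-145a-5p had 5 reads, so these distances too rest on few reads there. For miR-145a-3p they were miR-92b-3p (0.48), miR-486a-5p and miR-486b-5p with identical values (0.74 each), miR-34c-5p (0.94) and miR-350-3p (0.98). That order rests on 1 read of miR-145a-3p in MC38 Wako. miR-145a-5p and miR-145a-3p lay at 1.02 from each other, with 9 miRNAs nearer to miR-145a-5p.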

How the data were processed

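Small RNA of exosomes was sequenced in 4 libraries. The authors deposited a table with 1 normalized signal value per mature miRNA and library. DESeq2 is named, without a version, per the submitters' processing notes. Which aligner, counter, genome build and miRBase release were used is not given in the sources used here. All values above 0 (100%) equalled a whole number of reads divided by a library total, within 0.005, and 1 whole-number total alone fitted each column, so whole reads were recovered. Each column sums to slightly more than 1000000. A read that matches several miRNAs may be listed under each, which was not tested. miR-199a-3p and miR-199b-3p, for example, hold identical values. Whether the library total counts all mapped reads or miRNA reads alone is not known.

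limma 3.58.1 in R 4.3.3 was fitted to log2(value + 1) of miRNAs averaging 10 RPM or more, with a mean-variance trend and with terms for line and kit. With 1 residual degree of freedom and infinite prior degrees of freedom, SEs rest on the trend. Tests were two-sided. The fit was tested on simulated data with line effects, no kit effect and a fixed dispersion of 0.3. That test cannot show how the fit behaves where effects of line and kit are not additive. Ratios of reads have exact conditional intervals, and odds ratios exact intervals (scipy 1.17.1). Alternatives were other pseudocounts (0.5 and 10), filters, scalings, no second term, no trend, leaving out each library, and edgeR 4.0.16 and DESeq2 1.42.0 on recovered reads. The members and lists were chosen with earlier results of these data known. Named were the members, members of the lists, and the 5 miRNAs most like each member. Sequences of the members are not reported here.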

Additional observations from a re-analysis of the deposited data

Results flagged for a closer look

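The Wako minus ExoQuick difference of miR-143-3p ran in opposite directions in the 2 lines, at a log2 ratio of −0.70 in C26 and 1.76 in MC38. The C26 value minus the MC38 value is −2.46. The opposition depends on the scaling: with median-ratio scaling the ratios were 0.329 in C26 and 0.870 in MC38, both below 1. The difference itself was not tested, since a term for it would leave no residual degree of freedom.

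The C26 minus MC38 difference of miR-145a-3p ran in opposite directions with the 2 kits, at a log2 ratio of −0.32 with Wako and 2.70 with ExoQuick. The Wako value minus the ExoQuick value is −3.01. This difference was not tested either, and MC38 Wako holds 1 read of miR-145a-3p.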

How the results depend on the processing

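No member was called in any of the 15 alternatives to either test, where DESeq2 gave no adjusted p for miR-145a-3p between the kits. In the line test, miR-143-3p stayed higher in C26 (log2 1.27 to 3.03, adjusted p 0.156 to 0.980), as did miR-145a-5p (0.45 to 3.09, adjusted p 0.298 to 0.980). miR-145a-3p ran from −0.74 to 3.06 (adjusted p 0.559 to 0.986), and was below 0 only without MC38 ExoQuick and the kit term. In the kit test, miR-143-3p was −0.90, −1.11 and −0.64 with median-ratio, TMM and quantile scaling, −1.02 with edgeR and −0.94 with DESeq2 (−1.16 to 2.22 with 1 library and the line term left out, adjusted p 0.313 to 1 over all alternatives). miR-145a-5p (0.15 to 3.10) and miR-145a-3p (0.11 to 3.64) stayed higher with Wako.

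The 13 line calls became 8 without a filter, 6 with TMM scaling, and 0 with median-ratio scaling, quantile normalization, no trend or no kit term (26, 53, 46 and 25 at unadjusted p under 0.05 in limma). With 1 library and the kit term left out together they were 43 without C26 Wako, 58 without C26 ExoQuick and 0 without either MC38 library. edgeR called 19 and DESeq2 15, with 7 higher and 8 lower in C26. The 21 kit calls became 4 with TMM scaling (1 higher, 3 lower with Wako), 7 with edgeR, 9 without the line term, 0 with median-ratio scaling, quantile normalization or no trend (45, 95 and 31 at unadjusted p under 0.05 in limma). With 1 library and the line term left out together they were 11 without MC38 Wako, 41 without MC38 ExoQuick and 0 without either C26 library. DESeq2 called 16 between the kits, 9 higher and 7 lower with Wako, and the fit without a filter called 14. The median over all miRNAs tested moved with the scaling: 1.25, 1.56 and −0.05 for the lines and −0.57, −0.74 and 0.12 for the kits with median-ratio, TMM and quantile scaling, against 1.85 and 0.44 as reported. It also moved with the filter, to 0.37 for the lines and 0.94 for the kits with a mean of at least 100. Without a filter these were 0.42 and −0.40. With a pseudocount of 10 they were 1.08 and 0.59, and with 0.5 they were 2.04 and 0.42. The cause was not tested.

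With median-ratio scaling, the C26 over MC38 ratio with ExoQuick was 5.61 for miR-143-3p and 3.36 for miR-145a-5p. The Wako over ExoQuick ratio of miR-143-3p was 0.329 in C26 and 0.870 in MC38 with median-ratio scaling, and 0.171 and 1.26 with TMM. For miR-145a-5p it was 1.02 in C26 and 1.62 in MC38 with median-ratio scaling, and 0.528 in C26 with TMM. For miR-145a-3p in C26 it was 0.504 with TMM. With a pseudocount of 10, 5, 4 and 3 of the 5 most like miR-143-3p, miR-145a-5p and miR-145a-3p remained.

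No paired analysis was possible because each group of line and kit has 1 library, beyond the kit term of the line test, which compares the lines within each kit. Depth limits MC38 Wako most, where a count of 0 allows 776 RPM.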
